A study of Mus musculus with 12 samples.

Results

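The genes examined here encode the enzymes that make fatty acids and triglycerides in mouse liver, together with a few of their regulators. They were chosen by name, as 32 genes of this pathway, and all 32 were found among the 35498 genes of the deposited count table. The choice of members, classes and pairs was made with earlier results of these data known. The liver builds fatty acids in the cytosol: acetyl-CoA is made from citrate or acetate, carboxylated to malonyl-CoA and assembled into palmitate by fatty acid synthase. Palmitate is then elongated, desaturated and esterified to glycerol by enzymes embedded in the membrane of the endoplasmic reticulum (ER), and a few steps are placed on the outer membrane of mitochondria. Messenger RNAs for membrane proteins are commonly translated by ribosomes bound to the rough ER, whereas those for cytosolic enzymes are translated mostly on free ribosomes.

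The animals were C57BL/6N males at an age of 9 to 12 weeks, fasted overnight and studied 3 h after refeeding, and the poly(A) RNA of their livers was sequenced. Each of 6 mice gave 1 library from a lysate freed of nuclei and debris and 1 from wrappER-associated mitochondria (WAM), which are mitochondria recovered with the rough ER sheets around them and were prepared from that same lysate. All mice shared strain, sex and feeding state and the labels name no treatment, so the comparison is between 2 fractions of the same livers. It asks which messages of the pathway were relatively more abundant among the mRNAs recovered with WAM.

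Libraries held 7400274 to 12024128 estimated counts in lysate and 8344196 to 9712455 in WAM. The 13 mRNAs encoded by mitochondrial DNA took 2.19% to 3.29% of lysate counts and 12.5% to 23.1% of WAM counts. The 6 hepatocyte markers, among them Alb, took 3.66% to 6.89% and 3.84% to 8.51%, and the 7 adipocyte markers, whose cells also carry much of this pathway, at most 0.0013% in any library, with Lep at a maximum of 1 count. Of the 6 hepatocyte markers, 4 were higher in WAM and 2, Tat and Hnf4a, were lower. The livers also held other cells. Of 8 Kupffer cell markers 7 were higher in WAM, and they took 0.0592% of the lysate and 0.0783% of the WAM counts of mouse 5, against at most 0.024% and 0.031% in the other mice. All 6 sinusoidal endothelial markers and 4 of 6 stellate cell markers were higher in WAM too, with summed levels of 0.0099% to 0.0161% and 0.0108% to 0.0155% of counts over all libraries, and the part of these cells in the results below was not tested. In such bulk samples fewer cells of a type and less RNA per cell cannot be told apart.

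Fold changes below are from CPM, counts scaled to library size with TMM factors, which set the typical mRNA of a WAM library level with that of a lysate, and the median log2 fold change of all 11181 tested genes was -0.08. A gene called higher in WAM was therefore enriched relative to other mRNAs of the fraction, and no statement about molecules per liver follows. Scaled to plain library totals, the median of all genes shifted by -1.11 on the log2 scale, and by -0.86 with mitochondrially encoded genes left out of the totals. On library totals 3 members were called higher and 10 lower, where 4.56% and 77.4% of all genes were, and with mitochondrially encoded genes left out 7 and 9, where 10% and 72.1% were. The authors' own mitochondrial content coefficient, the rise of mitochondrially encoded mRNAs in each mouse (2.84 in mouse 2 to 6.40 in mouse 5), shifted it by -3.27, and on that scale 0 members were called higher (0.0537% of all genes) and 30 of 30 tested members lower in WAM (99.7% of all genes).

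Of the 32 members, 30 had enough counts to be tested. Pnpla3, a lipase-like protein of lipid droplets, never exceeded 2 counts in a library and Mogat1, a monoacylglycerol acyltransferase, never exceeded 8, so neither was compared. By edgeR's quasi-likelihood test at an adjusted p under 0.05, 16 members were higher in WAM and 2 were lower, where 29.5% of all tested genes were called higher, 28.8% lower and 58.2% either way. The median log2 fold change of the 30 was 0.80, with 21 above 0 and 9 below. When the mouse was added to the model as a block, 20 members were higher and 8 lower, against 33.5% and 36.2% of all genes (69.7% called). That fit added 10 calls and ended 0. Without mouse 5, whose Kupffer cell markers stood apart, 15 members were higher and 2 lower in the fit with no block, against 29.1% and 26.3% of all genes; the call that ended was that of Scd1. For 11 members every WAM library lay above every lysate library, which held for 20.3% of all genes, and for 0 members the reverse, against 14.2%. Within mice, 18 members were higher in WAM in 6 of 6 animals (30.0% of all genes) and 8 were lower in 6 of 6 (31.2%).

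**Figure D1:**
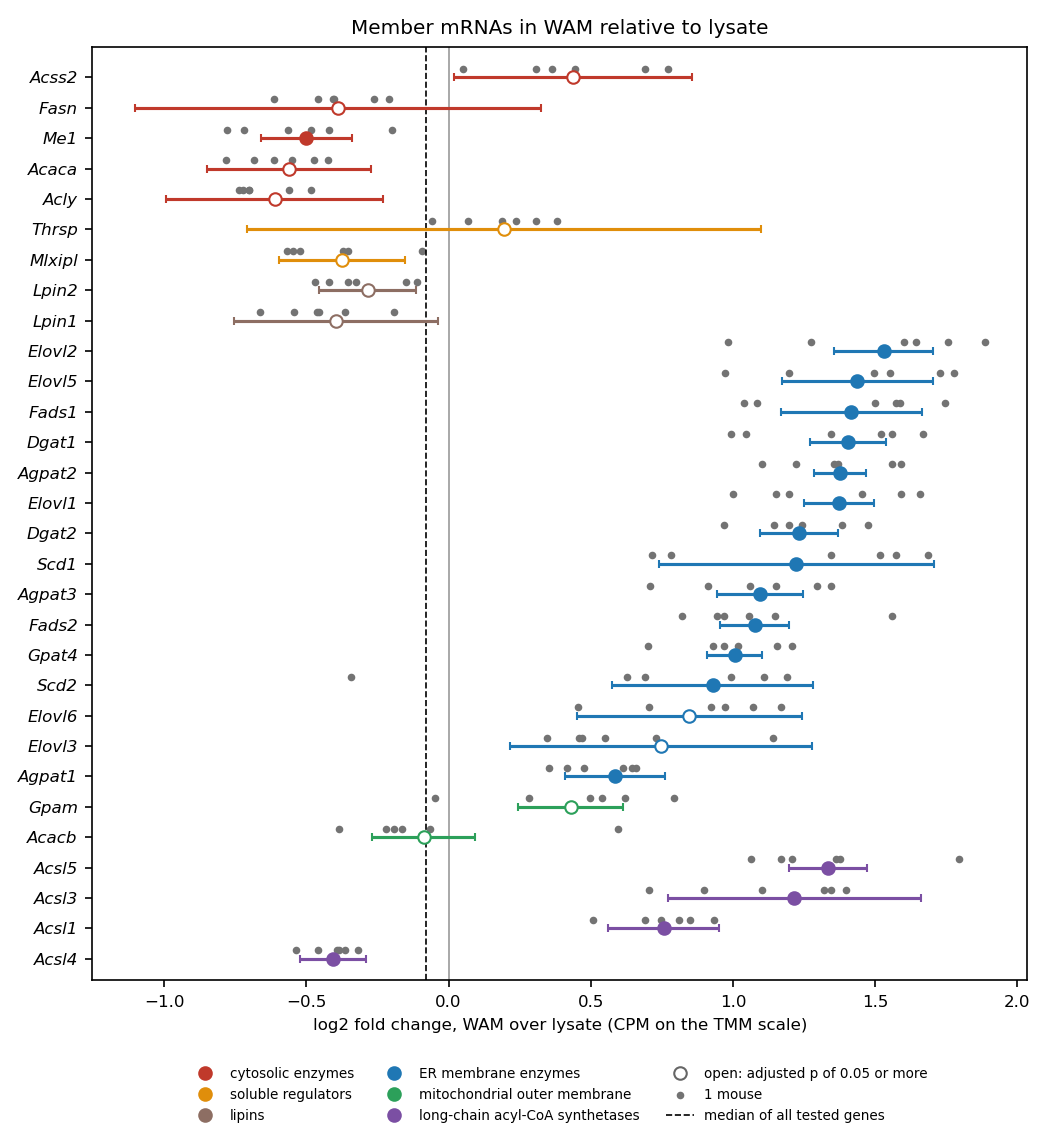
Log2 fold change of WAM over lysate for the 30 tested members, grouped by the place of the encoded protein: large circles are edgeR estimates from 6 libraries per fraction, bars are 1 SE, small grey points are the 6 mice and the dashed line is the median of all tested genes. The ER membrane enzymes lie between 0.58 and 1.53, while Acly, Acaca, Me1 and Fasn lie between -0.61 and -0.39.

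Fold changes differed with the place of the protein. The 15 tested ER membrane enzymes had a median log2 fold change of 1.22, from 0.58 to 1.53, with 13 called higher, 0 lower and 2 not called. The 5 cytosolic enzymes had a median of -0.50, from -0.61 to 0.44, with 0 higher, 1 lower and 4 not called. Of all tested genes, 29.5% were called higher and 28.8% lower. With the mouse as a block, 15 of 15 ER enzymes were higher, and of the cytosolic enzymes 1 was higher and 4 were lower. In that fit 33.5% of all tested genes were higher and 36.2% lower. Averaged over genes in each mouse, the ER enzymes exceeded the cytosolic enzymes by 1.11 to 1.69 on the log2 scale (mean 1.47 ± 0.24, SD, n = 6). The gap was smallest in mice 2 and 6, at 1.11 and 1.24, the animals whose mitochondrial coefficients were also lowest, at 2.84 and 4.16. Whether the yield of mitochondria bears on the gap was not tested.

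Acly, ATP-citrate lyase, cleaves citrate from mitochondria to give cytosolic acetyl-CoA. Its lysate CPM had a lowest value of 68.4, a median of 123 and a highest of 227, and its WAM CPM 41.3, 75.0 and 162. The fractions overlapped, and WAM was lower in all 6 mice, by 0.48 to 0.74 on the log2 scale. The log2 fold change was -0.61 (SE 0.38, edgeR adjusted p = 0.183), and in the blocked fit it was -0.65 (SE 0.07, adjusted p = 1.62e-07).

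Acaca, the cytosolic acetyl-CoA carboxylase that makes malonyl-CoA for synthesis, showed a difference of similar size. Its lysate CPM ran from 50.3 over a median of 86.0 to 135 and its WAM CPM from 31.1 over 60.4 to 100.3, with WAM lower in 6 of 6 mice and overlapping fractions. The log2 fold change was -0.56 (SE 0.29, edgeR adjusted p = 0.108; -0.59 and 6.55e-07 with the block).

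Fasn, fatty acid synthase, was at 430, 805, 655, 73.2, 84.8 and 133 CPM in the lysates of mice 1 to 6 and at 372, 586, 495, 55.0, 70.6 and 86.8 CPM in WAM. Mice 1 to 3 were high in both fractions and mice 4 to 6 low, an 11-fold range in lysate. Every WAM library was nonetheless below its own lysate, by 0.21 to 0.61 on the log2 scale. Without the mouse in the model the difference was not called (log2 fold change -0.39, SE 0.71, edgeR adjusted p = 0.659), and with it the gene was lower (-0.39, SE 0.08, adjusted p = 0.000272).

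Me1, cytosolic malic enzyme, supplies NADPH for synthesis. It was lower in WAM without the block, from 157 to 219 CPM in lysate (median 184) and from 98.0 to 190 in WAM (median 127), with a log2 fold change of -0.50 (SE 0.16, edgeR adjusted p = 0.0160). The fractions overlapped only through the WAM library of mouse 2, at 190 CPM. On the authors' coefficient set level by the median the call ended (-0.39, edgeR adjusted p = 0.379).

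Acss2, which makes acetyl-CoA from acetate in cytosol and nucleus, went the other way from the remaining cytosolic enzymes. It ran from 27.3 over a median of 41.6 to 119 CPM in lysate and from 32.9 over 64.8 to 147 in WAM. WAM was higher in 6 of 6 mice, by 0.05 to 0.77, and the log2 fold change of 0.44 (SE 0.42, edgeR adjusted p = 0.385) was called with the block (0.45, adjusted p = 0.000136). The unblocked value was 0.84 without lysate 2 and 0.12 without WAM 2.

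The soluble regulators and the lipins stayed near or below the typical mRNA. Mlxipl encodes ChREBP, the carbohydrate-responsive transcription factor of lipogenic genes. It had a log2 fold change of -0.37 (edgeR adjusted p = 0.161) and was lower with the block (-0.41, adjusted p = 9.91e-05). Thrsp, or Spot 14, a small lipogenic protein, stood at 64.5, 165, 71.3, 7.4, 9.16 and 7.36 CPM in lysates 1 to 6 and at 61.9, 205, 74.8, 8.51, 10.9 and 9.73 in WAM. Mouse 2 was far above all others and mice 4 to 6 were low in both fractions, and the log2 fold change of 0.20 (edgeR adjusted p = 0.865; 0.0617 with the block) was not called. Lpin1 and Lpin2, phosphatidate phosphatases that are soluble and bind membranes reversibly, had log2 fold changes of -0.40 and -0.28 (edgeR adjusted p = 0.361 and 0.166). Both were lower in 6 of 6 mice and were called lower with the block (adjusted p = 4.80e-05 and 0.000790).

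**Figure D2:**
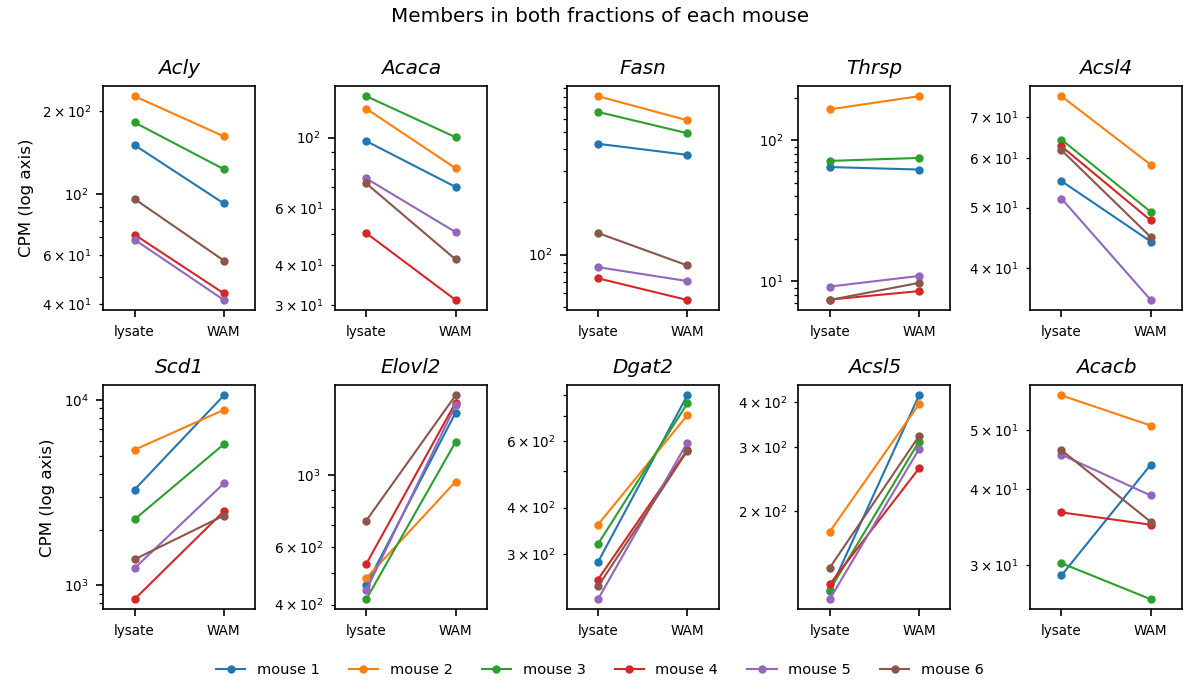
CPM of 10 members in lysate and WAM, with a line for each of the 6 mice; the axes are logarithmic and differ in range. Acly, Acaca, Fasn and Acsl4 drop in every mouse while Scd1, Elovl2, Dgat2 and Acsl5 climb in every mouse, and Thrsp and Fasn keep their wide spread between mice in both fractions.

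Elongases of the ER membrane, which lengthen fatty acyl chains, included the member with the highest fold change. Elovl2, which acts on polyunsaturated chains, had a lowest lysate CPM of 416, a median of 471 and a highest of 724, against 954, 1595 and 1754 in WAM. No WAM library fell within the lysate range, and the lowest, from mouse 2, was still above the highest lysate. The gene was 2.89-fold higher (log2 fold change 1.53, SE 0.17, edgeR adjusted p = 4.63e-06). Elovl5, also an elongase of polyunsaturated chains, ran from 176 over 313 to 486 CPM in lysate and from 604 over 736 to 1360 in WAM, without overlap, at 1.44 (SE 0.26, edgeR adjusted p = 0.000356). Elovl1, an elongase of very long saturated chains, was at 18.5 to 25.9 CPM against 42.9 to 68.0, again without overlap, at 1.37 (adjusted p = 4.68e-07).

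Elovl6, which extends palmitate to stearate, and Elovl3 were the elongases with smaller changes. Elovl6 was at 38.4 to 149 CPM in lysate (median 80.8) and 75.7 to 274 in WAM (median 152), with overlap, at a log2 fold change of 0.85 (SE 0.40, edgeR adjusted p = 0.0803). Elovl3 was at 68.0 to 480 CPM (median 213) and 99.7 to 1058 (median 325), at 0.75 (SE 0.53, adjusted p = 0.241). In both genes the mice with high lysate values had high WAM values, each was higher in WAM in 6 of 6 mice, and both were called with the block (adjusted p = 7.53e-08 and 2.04e-05). The unblocked value of Elovl3 was 1.04 without lysate 1 and 0.21 without WAM 1.

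Desaturases introduce double bonds next to the same membrane. Scd1, stearoyl-CoA desaturase, was the most abundant member and gave 3281, 5377, 2269, 843, 1238 and 1382 CPM in lysates 1 to 6 and 10560, 8831, 5762, 2510, 3545 and 2379 in WAM. All 6 mice were higher in WAM, by 0.72 to 1.69 on the log2 scale, although the low WAM libraries of mice 4 to 6 lay within the lysate range. The log2 fold change was 1.22 (SE 0.48, edgeR adjusted p = 0.0429; 4.08e-07 with the block). Without the block, the call was lost when any of 7 of the 12 libraries was left out (edgeR adjusted p from 0.0649 to 0.115). These were lysates 3 to 6 and WAM 1 to 3. The unblocked call also ended without mouse 5 (1.19, edgeR adjusted p = 0.0703) and among genes with at least 5 TPM (1.14, adjusted p = 0.0552). Limma without the block on log2(TPM + 1) and log2(TPM + 5) did not call the gene either (1.05 and 0.62, adjusted p = 0.0732 and 0.245).

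Fads1 and Fads2, the desaturases of polyunsaturated fatty acids, did not overlap between fractions. Fads1 was at 156 to 365 CPM in lysate (median 235) and 436 to 866 in WAM (median 621), at 1.42 (SE 0.25, edgeR adjusted p = 0.000231). Fads2 was at 105 to 156 CPM (median 126) and 234 to 312 (median 261), at 1.08 (SE 0.12, adjusted p = 4.12e-06). Scd2 stood at only 1.67 to 3.90 CPM in lysate and 1.23 to 8.26 in WAM. It was higher in 5 of 6 mice, with mouse 6 the exception. The log2 fold change was 0.93 (edgeR adjusted p = 0.0363), and 0.89 with the block (edgeR adjusted p = 0.000483). Without the block, that call was lost when any of 7 libraries was left out (edgeR adjusted p from 0.0508 to 0.0972). These were lysates 2, 3, 4 and 6 and WAM 1, 3 and 5. The call was also lost without mouse 2 (edgeR adjusted p = 0.0625) and on the authors' coefficient set level (edgeR adjusted p = 0.0902). Scd1 and Scd2 are related neighbours on chromosome 19, and reads of shared sequence could be assigned to either, so the level of Scd2 is uncertain.

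The glycerol backbone is acylated in steps by acyltransferases of the ER membrane. Gpat4, which adds the first acyl chain, was among the steadiest members, at 110 to 134 CPM in lysate (median 117) and 210 to 275 in WAM (median 240). Its log2 fold change was 1.01 (SE 0.10, edgeR adjusted p = 9.38e-07). Agpat2 and Agpat3, which add the next chain, also separated completely: Agpat2 ran from 118 to 139 CPM against 288 to 375 (1.38, SE 0.09, adjusted p = 5.41e-08) and Agpat3 from 152 to 228 against 270 to 529 (1.09, SE 0.15, adjusted p = 2.82e-05; 0.196 and 0.117 in limma on log2(TPM + 5), where the call ended). Agpat1, of the same enzyme family, was scarce at 3.00 to 5.10 CPM in lysate and 3.97 to 8.08 in WAM, overlapped, and had the smallest fold change of the ER group (0.58, edgeR adjusted p = 0.0110; 0.51 and 0.187 on the authors' coefficient set level, where the call ended).

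The final acylation to triglyceride is made by Dgat1 and Dgat2, enzymes with unrelated sequences. Dgat2 was at 228 to 360 CPM in lysate (median 272) and 566 to 796 in WAM (median 650), at 1.23 (SE 0.14, edgeR adjusted p = 3.48e-06). Dgat1 was much scarcer, at 7.96 to 11.4 CPM (median 8.77) and 18.9 to 32.7 (median 23.5), at 1.40 (SE 0.13, adjusted p = 8.74e-07). Neither overlapped between fractions, and together with Elovl1, Elovl2, Elovl5, Fads1, Fads2, Gpat4, Agpat2 and Agpat3 they made up the 10 ER enzymes that did not. Among all tested genes, 20.3% had every WAM library above every lysate library.

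The 2 members of the mitochondrial outer membrane had smaller fold changes than any of the tested ER enzymes, and neither was called without the block. Acacb, the acetyl-CoA carboxylase whose malonyl-CoA restrains fatty acid import into mitochondria, gave 28.9 to 57.01 CPM in lysate (median 41.1) and 26.4 to 50.9 in WAM (median 37.2). WAM was lower in 5 mice and higher in mouse 1, and the log2 fold change of -0.09 (SE 0.18, edgeR adjusted p = 0.700; 0.459 with the block) was not called. Gpam, the mitochondrial counterpart of Gpat4, gave 44.0 to 97.3 CPM (median 63.2) and 62.3 to 111 (median 90.7), higher in 5 of 6 mice with mouse 2 the exception. Its log2 fold change was 0.43 (SE 0.18, edgeR adjusted p = 0.0594), and it was called with the block (0.45, adjusted p = 0.000269) and without lysate 2, WAM 4 or mouse 2 (adjusted p = 0.00832, 0.0297 and 0.0163). DESeq2 (0.45, adjusted p = 0.0383) and edgeR on library totals without mitochondrially encoded genes, set level by the median (0.42, adjusted p = 0.0464), also called Gpam higher.

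Long-chain acyl-CoA synthetases activate fatty acids and are placed on both membranes. Acsl1, the abundant liver form, ran from 738 over a median of 883 to 1305 CPM in lysate and from 1093 over 1567 to 2107 in WAM (0.76, SE 0.20, edgeR adjusted p = 0.00450). That call ended on the authors' coefficient set level by the median (0.70, edgeR adjusted p = 0.0506) and in limma on log2(TPM + 5) (0.11, adjusted p = 0.635). Acsl5 did not overlap, at 114 to 175 CPM (median 123) and 262 to 417 (median 316), at 1.33 (SE 0.14, adjusted p = 1.85e-06). Acsl3, an ER and lipid droplet form, varied 5.91-fold among lysates, at 4.06 to 24.01 CPM against 10.9 to 61.7 (1.22, edgeR adjusted p = 0.0304). It was higher in 6 of 6 mice and was called with the block (1.18, edgeR adjusted p = 3.24e-09). Without the block its call was lost when lysate 4 or 6, WAM 1 or 3, or mouse 2 was left out (edgeR adjusted p from 0.0536 to 0.0999). The call was also lost in limma on log2(TPM + 1) and log2(TPM + 0.1) (adjusted p = 0.0682 and 0.0842). Acsl4, the form that prefers arachidonic acid, was the exception. It fell from 51.7 to 75.6 CPM in lysate (median 62.3) to 35.5 to 58.6 in WAM (median 46.2), lower in 6 of 6 mice by 0.32 to 0.54 (log2 fold change -0.41, SE 0.12, edgeR adjusted p = 0.00867). On the authors' coefficient set level the call ended (-0.34, edgeR adjusted p = 0.410).

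A ratio of 2 genes counted in the same library does not depend on how libraries are scaled, so 9 pairs of members were compared in that way by two-sided exact permutation tests (n = 6 libraries per fraction; 924 assignments, smallest p 0.00216; within mice 64 assignments, smallest p 0.0312), with p adjusted over the 9 pairs. The Scd1 to Fasn ratio, a membrane desaturase against the cytosolic synthase, had a mean log2 value of 3.04 ± 0.73 in lysate and 4.70 ± 0.84 in WAM (SD). It was higher in 6 of 6 mice, by 1.17 to 1.98, or 3.17-fold on average (exact permutation adjusted p = 0.0390, within mice 0.0469). Leaving out any of 9 of the 12 libraries took the adjusted p of this pair to between 0.0584 and 0.117; these were every lysate except that of mouse 5, and WAM 1, 4, 5 and 6. Elovl6 to Fasn moved from -1.62 ± 0.69 to -0.34 ± 0.84 (up in 6 of 6 mice; exact permutation adjusted p = 0.107, within mice 0.0469), and without WAM 2 its adjusted p was 0.0292.

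Within mice, ratios of related enzymes also differed, both for pairs of different places and for pairs of the same class. Acacb to Acaca, the carboxylases of mitochondrion and cytosol, rose in 6 of 6 mice by 0.23 to 1.08, from a mean log2 ratio of -1.14 ± 0.68 to -0.62 ± 0.71 (exact permutation adjusted p = 0.366 over all libraries, 0.0469 within mice). Gpam to Gpat4, the acyltransferases of mitochondrion and ER, fell in 6 of 6 mice by 0.34 to 0.75, from -0.93 ± 0.42 to -1.48 ± 0.38 (exact permutation adjusted p = 0.117, within mice 0.0469). Within a class, Acsl1 to Acsl5 was lower in 6 of 6 mice, with a mean difference of -0.58. Fads1 to Fads2, both ER enzymes, was higher in 6 of 6 by 0.34 on average (exact permutation adjusted p = 0.185 and 0.390, within mice 0.0469 each). Every within-mouse adjusted p of 0.0469 comes from the smallest possible p, reached when all 6 mice go the same way. Its value depends on how many pairs reach that floor. The remaining 3 pairs passed neither test: Dgat2 to Dgat1 differed by -0.16, Lpin1 to Lpin2 by -0.15 and Elovl2 to Elovl5 by 0.07 (within-mouse exact adjusted p = 0.219, 0.105 and 0.105).

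**Figure D3:**
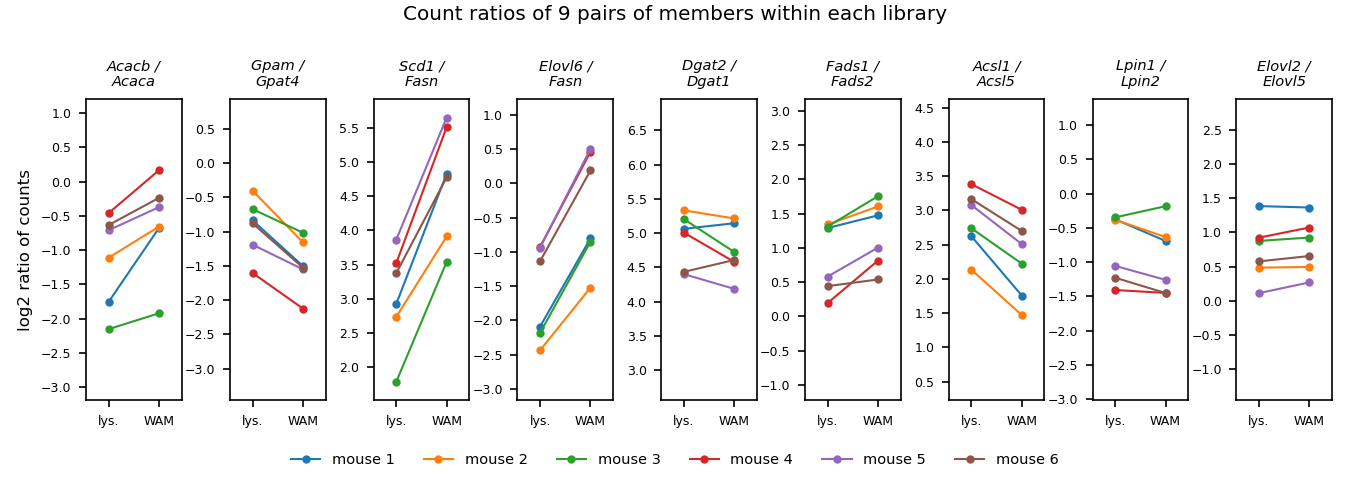
Log2 ratio of the counts of 2 members in the same library, lysate (lys.) and WAM, with a line for each of the 6 mice; every panel spans the same number of log2 units. Scd1/Fasn and Elovl6/Fasn climb steeply in 6 of 6 mice, Gpam/Gpat4 and Acsl1/Acsl5 decline in 6 of 6, and Elovl2/Elovl5 is nearly flat at a mean difference of 0.07.

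Stretches of the coding sequence that specify a membrane-spanning or buried hydrophobic segment are shown for the members on which the contrast turns. They are 57 bases long, read 5′ to 3′ on the coding strand from GENCODE M21 transcripts of GRCm38, and cover the 19 codons with the highest mean hydropathy of that protein on the Kyte-Doolittle scale. Capitals mark codons whose middle base is T, which specify the strongly hydrophobic residues phenylalanine, leucine, isoleucine, methionine and valine. The cytosolic enzymes come first, then the mitochondrial outer membrane, the ER enzymes and the acyl-CoA synthetases.
Acaca, gene at chr11:84129672-84401651 on the plus strand, codons 1813 to 1831: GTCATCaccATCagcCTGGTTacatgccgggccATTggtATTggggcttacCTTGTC
Fasn, gene at chr11:120805846-120824547 on the minus strand, codons 549 to 567: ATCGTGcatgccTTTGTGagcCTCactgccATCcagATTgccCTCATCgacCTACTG
Acacb, gene at chr5:114146535-114250761 on the plus strand, codons 2 to 20: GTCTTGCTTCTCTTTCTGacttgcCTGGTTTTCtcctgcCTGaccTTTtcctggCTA
Gpam, gene at chr19:55067268-55127238 on the minus strand, codons 576 to 594: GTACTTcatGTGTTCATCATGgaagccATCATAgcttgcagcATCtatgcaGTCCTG
Gpat4, gene at chr8:23171265-23208346 on the minus strand, codons 14 to 32: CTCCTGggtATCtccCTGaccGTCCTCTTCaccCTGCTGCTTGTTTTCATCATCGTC
Scd1, gene at chr19:44394455-44407879 on the minus strand, codons 72 to 90: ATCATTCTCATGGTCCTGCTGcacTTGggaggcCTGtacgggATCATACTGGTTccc
Elovl2, gene at chr13:41182381-41220405 on the minus strand, codons 232 to 250: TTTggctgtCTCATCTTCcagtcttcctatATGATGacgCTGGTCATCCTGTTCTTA
Acsl4, gene at chrX:142317993-142390535 on the minus strand, codons 10 to 28: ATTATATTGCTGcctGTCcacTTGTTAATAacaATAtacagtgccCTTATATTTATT
Acsl5, gene at chr19:55251938-55297720 on the plus strand, codons 14 to 32: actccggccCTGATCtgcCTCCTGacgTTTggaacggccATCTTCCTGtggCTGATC
The stretch of Acaca holds 9 such codons of 19 and that of Gpat4 holds 15, with mean hydropathies of 1.87 and 2.93.

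A window of 19 residues with a mean of at least 1.6 was counted as a hydrophobic segment. All 32 members matched a coding sequence. Among tested members, 24 held such a segment and had a median log2 fold change of 1.04, and 6 held none and had a median of -0.38. Over all tested genes with a sequence, 3730 with a segment had a median of 0.86 and 60.2% were called higher, and 7241 without one had a median of -0.23 and 13.6% were called higher. Of those with a segment, the 1720 genes with 2 or more had a median of 1.04 and 74.8% were called higher. All 15 tested ER enzymes had a segment, and all of them except Scd1 had 2 or more. Presence alone did not sort the members: Acaca, Fasn and Acss2 also held one, beginning at codon 1813, 548 and 162. In Acacb and Acsl4 it began at codon 1, as in Acsl5 and Gpat4, yet neither was higher in WAM. These positions hold for the transcript used of each gene, which for Acsl4 encodes 711 residues. Whether the liver mRNA encodes these stretches was not tested.

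Across the 30 tested members the log2 fold change had a Pearson r of 0.47 and a Spearman rho of 0.33 with the highest hydropathy. It had an r of -0.64 and a rho of -0.60 with coding length, where Acaca, Acacb and Fasn are the long proteins at 2345, 2448 and 2504 residues. Both are descriptions over genes, which share libraries and are not independent replicates.

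**Figure D4:**
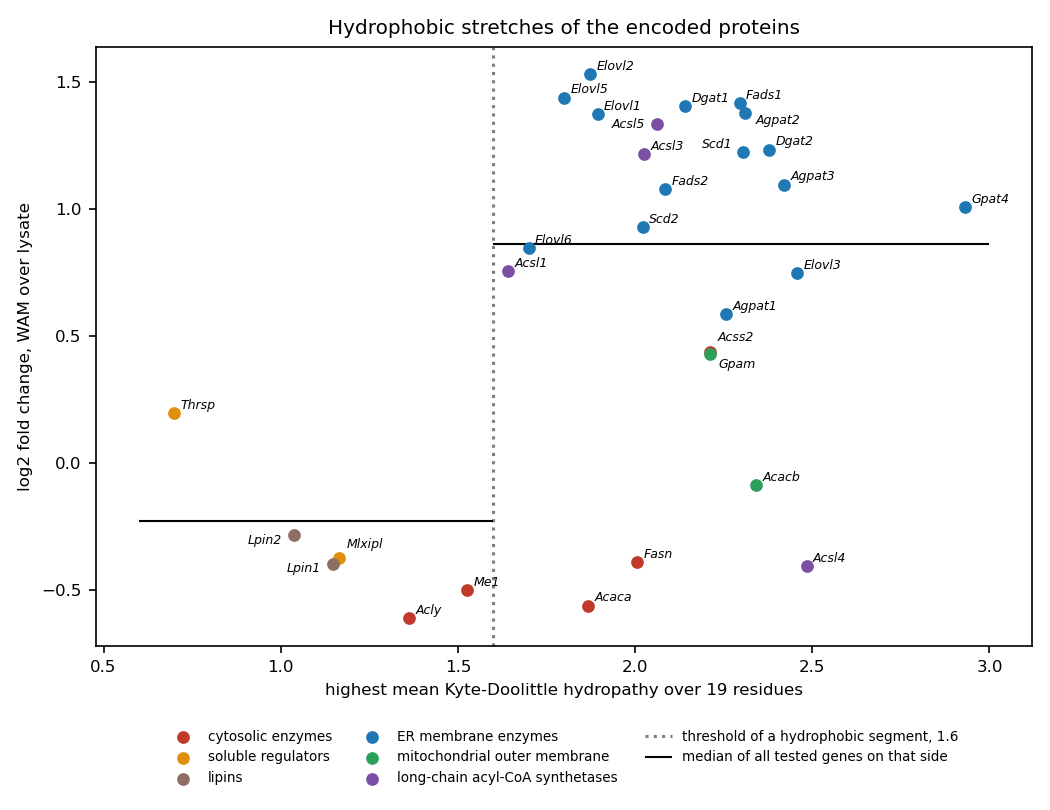
Log2 fold change of WAM over lysate against the highest mean hydropathy over 19 residues of the encoded protein, for the 30 tested members coloured by place; black lines are the medians of all tested genes below (-0.23) and above (0.86) the threshold of 1.6. The ER enzymes lie to the upper right, and Acaca, Fasn, Acacb and Acsl4 lie to the right of the threshold with fold changes under 0.

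Per length, in TPM, the length-scaled transcript abundance, the most abundant members in lysate were Scd1 at 991 ± 630, Acsl1 at 529 ± 151, Elovl3 at 373 ± 220, Elovl2 at 278 ± 70.2 and Dgat2 at 274 ± 33.2 (mean ± SD, n = 6). Elovl5 (248 ± 99.2), Agpat2 (203 ± 10.3), Fasn (197 ± 155) and Fads2 (190 ± 31.96) followed, and neighbours in this order lay within the spread between mice. At the lower end of the tested members were Agpat1 at 5.29 ± 1.51 and Scd2 at 0.975 ± 0.36 TPM. Scd1 alone took 31.1% of the members' lysate counts on average, from 16.7% to 48.1% by library, and 21.8% to 52.5% in WAM.

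Together the 32 members took 1.03% ± 0.30 of lysate counts and 0.962% ± 0.27 of WAM counts, higher in WAM in 1 of 6 mice (SD, n = 6). With mitochondrially encoded genes left out of the total the shares were 1.06% ± 0.31 and 1.16% ± 0.27, higher in 5 of 6 mice. Without Scd1 the other members took 0.679% and 0.582% of all counts (higher in 0 of 6 mice), and 0.698% and 0.708% with mitochondrially encoded genes left out (4 of 6). In TPM with mitochondrially encoded genes left out, the shares of all 32 members, Scd1 included, were 0.464% ± 0.10 and 0.411% ± 0.08, higher in 0 of 6. The direction of the summed share thus depended on the unit and the total.

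The members also varied more between mice than most genes did. The median coefficient of variation over 6 lysates was 26.1% for the 30 tested members against 13.5% for all tested genes, and 26 of 30 exceeded the latter; in WAM it was 26.5% against 18.1%. Thrsp, Fasn, Scd1, Acss2 and Elovl3 led in lysate, at 114%, 87.0%, 70.9%, 64.9% and 61.3%. Agpat2 (5.7%), Gpat4 (7.6%) and Elovl1 (12.3%) were steadiest.

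Most variable members followed the same animals. The lysate of mouse 2 had the highest CPM in 18 of 30 tested members, and the lowest was that of mouse 5 in 10 and mouse 4 in 9. How often these mice ranked so among all tested genes was not counted, so this order may not be particular to the members. Lpin1, for example, was at 51.2, 68.1 and 61.6 CPM in the lysates of mice 1, 2 and 3 and in those of mice 4, 5 and 6 at 23.97, 24.7 and 31.8. Elovl5 and Acsl1 had the opposite order at the top: Elovl5 was highest in mice 5 and 6, at 410 and 486 CPM, and Acsl1 in mice 4 and 6, at 1305 and 1246. The labels give all mice the same feeding state and name no batch.

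**Figure D5:**
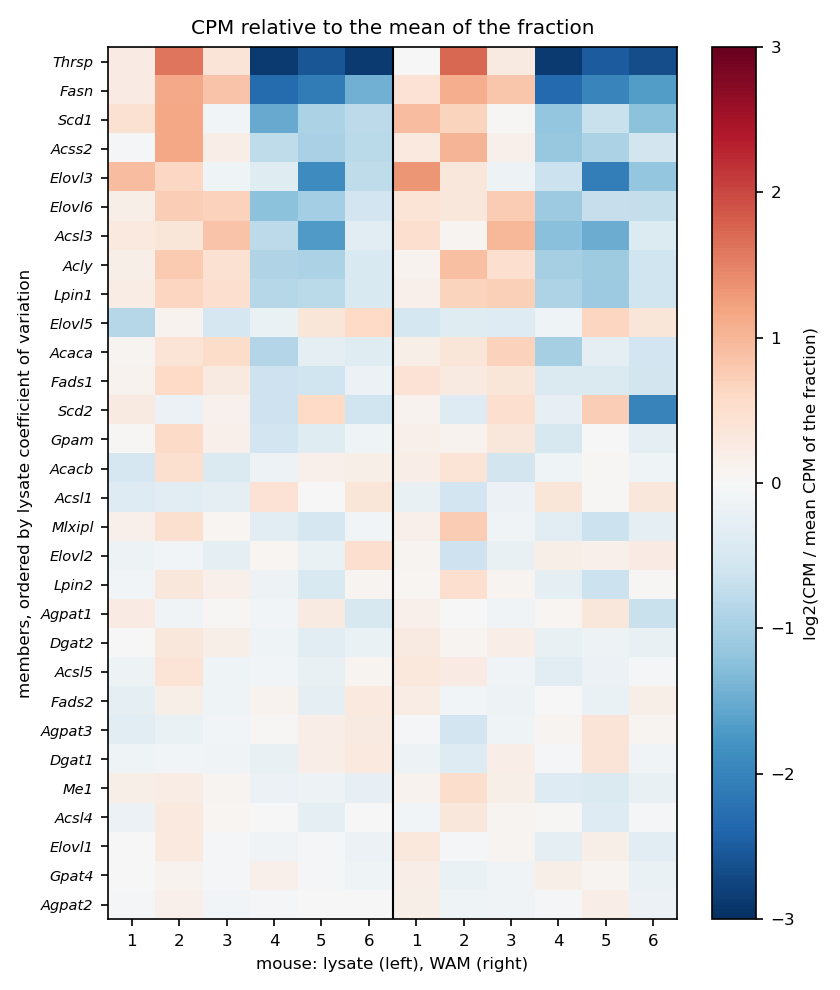
CPM of the 30 tested members in each library relative to the mean of its fraction (log2, colour), with lysates of mice 1 to 6 on the left and WAM on the right and members ordered by their lysate coefficient of variation. Thrsp, Fasn and Scd1 are high in mouse 2 and low in mice 4 to 6 in both fractions, and Agpat2 and Gpat4, at the bottom, are nearly even.

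Other genes of the pathway, listed by function and tested in the same fit, are given next by their counts. Beside them stand the shares of all tested genes, 29.5% higher and 28.8% lower, and 33.5% and 36.2% with the block. Of 13 genes of the elongation cycle and further desaturases, 9 were tested and 8 were higher, 0 lower and 1 not called, with a median log2 fold change of 1.32. Hsd17b12, the ketoacyl reductase of the cycle, went from 85.1 ± 10.8 to 257 ± 32.04 CPM (1.59, SE 0.11), and Hacd3, a dehydratase of the cycle, from 109 ± 19.3 to 315 ± 77.5 (1.53, SE 0.17; SD, n = 6; edgeR). Of 12 further acyl-CoA synthetases and fatty acid carriers, 9 were tested, with 5 higher, 1 lower and 3 not called (median 1.00; 7 and 2 with the block). The membrane-bound Slc27a2 and Slc27a4, both fatty acid transport proteins with synthetase activity, were at log2 fold changes of 1.298 and 1.59. Fabp1, the abundant soluble fatty acid binding protein, was at 0.32 (edgeR adjusted p = 0.177; 0.0117 with the block).

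Of 13 further glycerolipid genes, 10 were tested, with 7 higher, 0 lower and 3 not called (median 0.91; 7 and 1 with the block). The gene lower with the block was Gk, glycerol kinase, named after its values were seen (-0.41, adjusted p = 9.88e-05, lower in 6 of 6 mice). Gpat3, an ER acyltransferase, was at 1.48 and Lpgat1, a membrane acyltransferase, at 0.88, while Gpd1, the soluble enzyme that makes glycerol 3-phosphate, was at 0.08 (edgeR adjusted p = 0.543). The 18 genes that supply citrate, malonyl-CoA or NADPH, mostly soluble or mitochondrial, had 0 higher, 3 lower and 15 not called, with a median of -0.06, and 4 higher and 7 lower with the block. Mdh1 (-0.13) and Idh1 (-0.24), cytosolic dehydrogenases, were not called, Idh1 being lower with the block (adjusted p = 0.00573), and Prkaa1, a catalytic subunit of AMP-activated kinase, was lower at -0.72 (SE 0.13, adjusted p = 0.000231). Among 14 regulators of lipogenesis 4 were higher, 2 lower and 8 not called, with a median of 0.10, and 6 and 2 with the block. Their share called higher without the block was near the 29.5% of all tested genes. Scap, the ER membrane escort of SREBP, was at 1.24, whereas the nuclear receptor Rxra was lower at -0.36 (adjusted p = 0.0259). Insig1, an ER membrane anchor of Scap, ranged widely between mice, at 176 ± 132 and 371 ± 272 CPM (1.07, edgeR adjusted p = 0.152), and was called with the block.

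In the authors' deposited table, 11 members were among the 1159 transcripts listed with an enrichment value, which is coefficient-divided WAM TPM as a percentage of lysate TPM. In the authors' deposited table Elovl2 stood highest of these, at 21.5% with an SEM of 2.2, and Elovl3 lowest at 12.1%, against a list median of 15.4%. Of these 11, the authors' deposited table marked 10 as ER proteins and Acsl1 as mitochondrial, and 0 as cytosolic. The marks come from a list of WAM transcripts named for a level of 5 TPM. A member scarce in WAM could be absent from it. Before division by the coefficient, however, the cytosolic Me1, Fasn, Acss2 and Acly exceeded 5 TPM in every WAM library. Their lowest WAM values were 19.7, 7.72, 7.80 and 6.30 TPM, and none of them is among the 11. Why they are missing was not tested, so nothing about cytosolic members follows from the 0.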

How the data were processed

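Poly(A) RNA of 6 lysates and 6 WAM fractions of mouse liver was compared. The authors deposited estimated counts per gene, not normalised, and a second table of TPM, a length-scaled transcript abundance, per the file headers. The authors' enrichment score, a percentage of lysate TPM after division by a mitochondrial content coefficient per mouse, is theirs, per the file headers. Tools named by the submitters' processing notes, with no role for each, are kallisto 0.44.0, fastp 0.12.4, R 3.5.0 and DESeq2 1.20.0. Their genome build is not given in the sources used here. Left unused were 60 more columns of per-sample values.

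Repeated lines of the count table (48042 in all) were collapsed to 35498 genes. Estimated counts were rounded, as 32.5% of the non-zero ones were fractional. Genes passing filterByExpr (11181) were tested with edgeR 4.0.16 (R 4.3.3) by the quasi-likelihood F test with TMM scaling, fraction as the only term, and Benjamini-Hochberg adjustment over all tested genes. Within-mouse log2 ratios used CPM plus 0.5, and pair ratios counts plus 0.5. P-values of the fit without the block and of permutation over all libraries measure spread between the libraries of each fraction. Those with the block or within mice rest on the WAM to lysate differences of the 6 mice. The precision of scarce genes is limited by depth: Scd2 had as few as 9 counts in a library. Counting errors are not given separately, and each value stands with its spread over 6 mice.

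The WAM fraction was made from the lysate of the same mouse, per the labels' protocols, and equal numbers mark the same mouse. Deviations from the fraction mean correlated between lysate and WAM of a mouse with r of 0.45 to 0.77, and between different mice with r of at most 0.40. For members and for the counts of other pathway genes, results with the mouse as a block are printed where they change a call. No libraries of a fraction agreed within sampling noise (chi-square per degree of freedom at least 12.1). Tested on counts simulated for the WAM against lysate comparison (11181 genes, 200 changed), the count test recovered 49.3% of genes changed 1.5-fold, 74.6% changed 2-fold and 97.0% changed 4-fold, with 2 false calls. The simulated libraries shared no mice, and far fewer genes changed than the 58.2% called in the real data. These rates therefore need not hold for the real calls.

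All 32 members are named. Of each list of other pathway genes the 2 most abundant and the largest change are named. The members, their classes and all lists were chosen with earlier results of these data known. Coding sequences were matched by Ensembl identifier in GENCODE M21, on GRCm38, which need not be the authors' build. Alternatives were DESeq2 1.42.0 and its size factors, other scalings, limma 3.58.1 on log2(TPM + 1), (TPM + 0.1) and (TPM + 5) centred on the median of all genes, other filters, the block and each library left out.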

Additional observations from a re-analysis of the deposited data

Results flagged for a closer look

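In 78 groups of 6 values (30 members in CPM in each fraction and 9 pair ratios in each), 2 held a library set apart from the other 5 by Dixon's criterion, where about 1 group in 20 is set apart by chance. The Thrsp level in WAM was 205 CPM in mouse 2, with the nearest other mouse at 74.8. The Elovl1 level in lysate was 25.9 CPM in mouse 2, with the nearest other at 21.2. Thrsp was not called in either fit, and Elovl1 was higher in WAM with every single library left out, at log2 fold changes of 1.29 to 1.44.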

How the results depend on the processing

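Of recomputed values of single members, 675 kept their direction and side of the threshold, 33 lost a call, 30 gained one and 10 changed sign. Counts within 1.5 times of those reported, medians and shares that moved by less than 1 SD and pair ratios that kept side and direction made up 269 more. Scales not set level by the median of all genes moved the counts. Called higher were 510 genes and 3 members on library totals, 1121 and 7 without mitochondrially encoded genes in the totals, and 6 and 0 on the authors' coefficient. Called lower were 8649 genes and 10 members, 8056 and 9, and 11152 and 30. Set level, the coefficient gave 545 genes and 0 members lower, 13 members higher (Me1, Acsl4, Scd2, Agpat1 and Acsl1 losing their calls), and class medians of -0.39 for cytosolic enzymes, 0.22 for soluble regulators and -0.21 for lipins; it adds the spread of the coefficient between mice. Limma on TPM gave 5 members lower with a pseudocount of 1, and with 5 gave 6 members lower and 5231 genes higher. In TPM without mitochondrially encoded genes the cytosolic median was -0.74. The replicate block gave 8 members lower. The members' percent of counts differed by 0.107 in favour of WAM without mitochondrially encoded genes.

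Leaving out 1 library gave 13 to 18 members higher and 2 to 4 lower (4 without WAM 2, where Mlxipl and Lpin2 were added). Without mouse 5, or mouse 2, chosen after seeing the data, 15 members were higher in each case and 2 or 3 lower. Reversed values, none of them called, were for Fasn 0.012 and Acacb 0.031 without lysate 2, and for Thrsp -0.034, -0.027 and -0.037 without lysate 4, 5 or 6 and -0.67 without WAM 2; with 1 library left out these genes ranged from -0.72, -0.17 and -0.67 to 0.012, 0.031 and 0.96. With a TPM pseudocount of 5 they were Thrsp -0.18, Elovl3 -0.0078, Acacb 0.032 and Gpam -0.0029. Among pairs, Elovl6/Fasn passed in TPM plus 0.1 (1.56, exact permutation adjusted p = 0.0390) and without WAM 2 (1.52, exact permutation adjusted p = 0.0292). With the replicate block, labels exchanged within mice, Acacb/Acaca (0.52), Gpam/Gpat4 (-0.55), Elovl6/Fasn (1.28), Fads1/Fads2 (0.34) and Acsl1/Acsl5 (-0.58) also passed. Each of these, like Scd1/Fasn, stood at the smallest p of the within-mouse exact test (0.0312). Their shared adjusted p therefore depends on how many pairs reach that floor. Scd1/Fasn ranged from 1.41 to 1.896, Elovl6/Fasn from 1.11 to 1.52 and Elovl2/Elovl5 from -0.052 to 0.20 with 1 library left out, Elovl2/Elovl5 reversing to -0.052 without lysate 5 and -0.043 without WAM 1. The cause of these changes was not tested. The authors' marks gave no cytosolic median, since they mark 0 members as cytosolic. Mogat1 and Pnpla3 were too scarce to compare at this depth.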
